A study of Homo sapiens with 4 samples.

Results

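The genes described here are the cyclins, the cyclin-dependent kinases (CDKs) and the CDK inhibitors, in LNCaP cells given PC-3 exosomes and in LNCaP cells given PBS. Of 41 genes listed by name, 40 had at least 1 probe set annotated to that gene alone, and they had 122 such probe sets among the 44988 of the array. CDKN2C matched none and was not analysed here. The 40 were sorted by role into 13 cyclins and CDKs of the cell cycle, 13 of transcription, 6 inhibitors and 8 others, among 18132 genes in all. LNCaP (LNCAP in the labels) is an androgen-responsive human prostate cancer line, and exosomes are small vesicles that cells secrete, here from PC-3, an androgen-independent line also derived from prostate cancer. Each group had 2 Affymetrix expression arrays, and all cells were kept in RPMI-1640 medium with fetal bovine serum. The control samples carry the agent label none, while the treatment protocol says that controls received PBS. Dose, exposure time and passage are not used here. Whether a group's 2 arrays are separate cultures is not in the labels, so p-values measure only the spread between these arrays, which may be technical.

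Cyclins are regulatory subunits that switch on their partner CDKs. The D cyclins with CDK4 and CDK6 start the inactivation of the retinoblastoma protein in G1. The E cyclins with CDK2 drive entry into S phase, cyclin A acts in S and G2, and the B cyclins with CDK1 drive mitosis. A second branch acts on RNA polymerase II: CDK7 with cyclin H, CDK8 or CDK19 with cyclin C in Mediator, CDK9 with the T cyclins, and CDK12 or CDK13 with cyclin K. Inhibitors of the CIP/KIP family bind cyclin-CDK complexes, and those of the INK4 family bind CDK4 and CDK6. Transcripts of the A, B and E cyclins come and go with the cell cycle, while those of the transcriptional branch are largely steady.

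The deposited values are normalized intensities, 1 per probe set and array, and the median intensity per array lay between 110.8 and 112.4. Tests were run with limma on log2(intensity + 1), exosomes minus PBS, over all 18132 genes with the brightest probe set of each, so every fold is a ratio of values plus 1. The number of arrays limits the precision. LNCaP markers (KLK3, KLK2, TMPRSS2, HOXB13, SLC45A3 and STEAP2 were measured, 6 of 8 listed) summed to intensities of 36762 to 37621 with exosomes and 36918 to 36954 with PBS. The extraction protocol speaks of brain tissue. Of 7 measured brain markers SYT1 and GAD1 lay below the mean of the background controls, and the 7 summed to 1588 to 1608 with exosomes and 1458 to 1523 with PBS, of which MBP gave 867 and 868 against 764 and 764. The 9 listed PC-3 markers summed to 1006 to 1041 with exosomes and 1063 to 1085 with PBS, and limma called 0 of them. By unadjusted limma p under 0.05, 1 was lower and 0 higher, against 5.16% and 5.76% of all genes. On the log2 scale the mean of the poly-A spike-ins (added control transcripts) was 6.94 and 7.02 on the exosome arrays and 6.90 and 6.77 on the PBS arrays. The labels do not give the amount of spike-in per RNA.

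No member passed the test at an adjusted p under 0.05: 0 of 40, where limma called 0.888% of all genes. By an unadjusted p under 0.05, exosome values were lower in 8 members and higher in 1. The lower 8 are 20% of the members, where 5.16% of all genes were lower by that rule. These shares compare unlike genes, since 33 of the 40 members were at or above the median level. The median SE was 0.060 over the members and 0.078 over all genes. The single higher member is CDKN1A, where 5.76% of all genes were higher. The 8 were CCNA2, CCNB1, CCNB2, CCNE1, CCNE2, CCNF, CDK1 and CDKN3, so 7 of them belong to the cell cycle role and 1 to the inhibitors. Both exosome arrays lay below both PBS arrays in 15 of 40 members (37.5%), against 21.9% of all genes. Both lay above in 7 (17.5%), against 17.8%, a share near the background. The median log2 fold change was -0.03 over the 40 members, 24 of them below 0, and -0.01 over all genes, 56.0% of them below 0, and single values ran from -0.27 in CCNA2 to 0.20 in CCNG1.

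**Figure D1:**
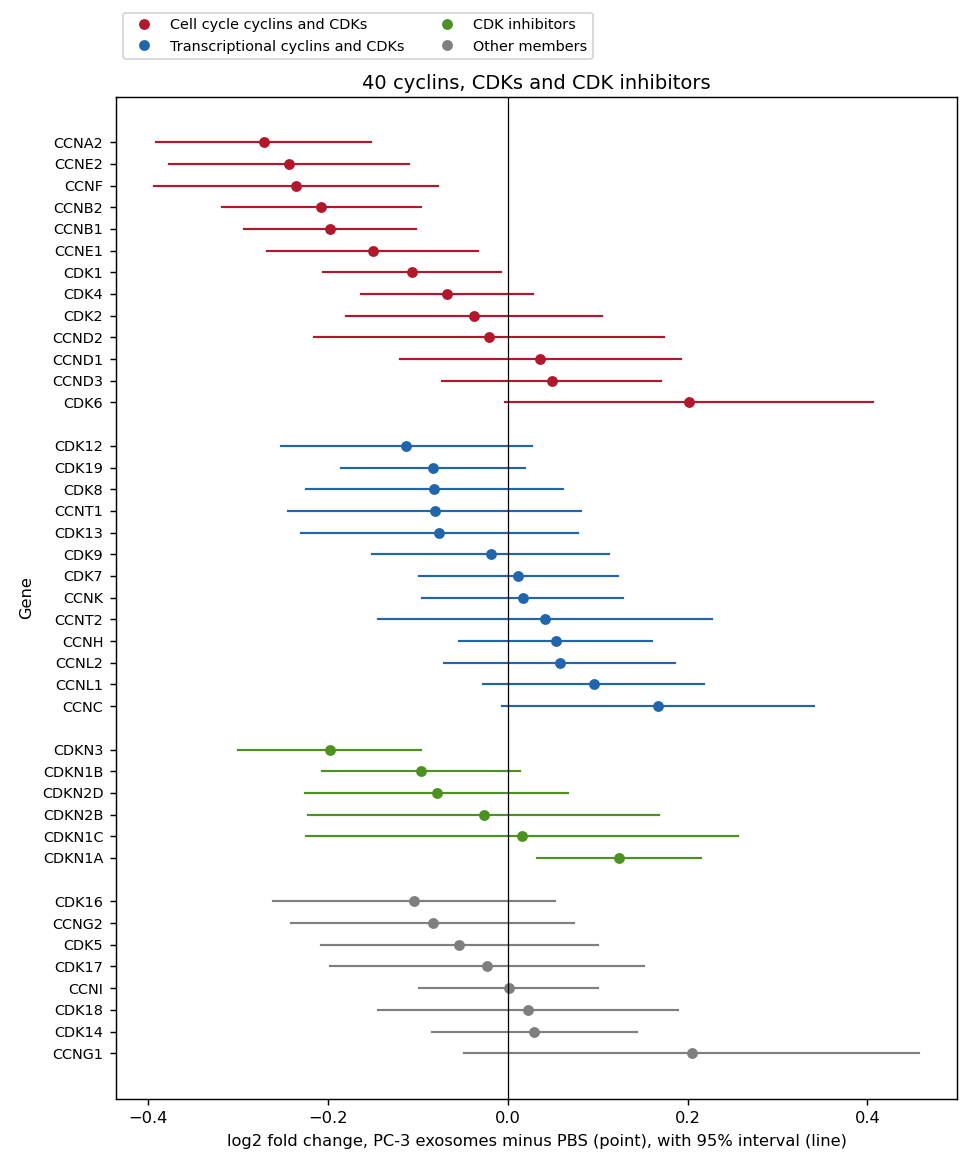
Log2 fold change of each of the 40 members, exosomes minus PBS (x axis), by gene (y axis) and role (colour), with the 95% interval of limma's fit, not adjusted for the number of genes. The intervals of 7 cell cycle members and of CDKN3 lie below 0, that of CDKN1A lies above 0, and those of all transcriptional members hold 0.

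Centring arrays on the poly-A spike-ins lowers every log2 fold change by 0.14, and the median of all genes to -0.15. It leaves 3 of the 40 members above 0 in place of 16, so counts above and below 0 hold on the deposited scale only. With arrays centred on the spike-ins 7 members passed, all lower: CCNA2, CCNB1, CCNB2, CCNE1, CCNE2, CCNF and CDKN3. That is 7 of 40, where 1.8% of all genes were called lower. After quantile normalization CCNA2, CCNB1 and CCNB2 passed, all lower, 3 of 40 against 0.386% of all genes called lower. On the deposited scale limma called 34 of all genes lower and 127 higher. Among the 9066 genes at or above the median level, 33 members were tested, and CCNA2, CCNB1, CCNB2, CCNE2 and CDKN3 passed (5, lower, against 0.927%). These 33 exclude the dimmest members.

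CCNA2, the cyclin of S and G2, had the lowest log2 fold change of the members. Its intensities were 806 and 846 on the exosome arrays and 1007 and 987 on the PBS arrays. All exosome values lay below all PBS values, by -0.27 on the log2 scale (SE 0.053, 95% interval -0.39 to -0.15, limma adjusted p = 0.058), or 1.21-fold lower. CCNB1, a mitotic cyclin, had 2930 and 2879 on the exosome arrays against 3406 and 3260 on the PBS arrays. Its log2 fold change was -0.20 (SE 0.042, limma adjusted p = 0.085), and the groups did not overlap. CCNB2, the other B cyclin measured, had 1703 and 1644 against 1988 and 1878, a log2 fold change of -0.21 (SE 0.049, limma adjusted p = 0.124), again without overlap. For each of these 3 genes the log2 fold change kept its sign with any 1 array left out, at -0.31 to -0.17.

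The E cyclins and cyclin F lay in the same direction. CCNE2, a partner of CDK2, had intensities of 552 and 518 with exosomes and 636 and 629 with PBS (log2 -0.24, SE 0.059, limma adjusted p = 0.137). CCNE1 had 742 and 735 against 813 and 826 (log2 -0.15, SE 0.052, limma adjusted p = 0.317). Its dimmer probe set, at 36.1 and 37.4 on the exosome arrays and 35.9 and 36.9 on the PBS arrays, lay under the background controls' mean and gave 0.02. CCNF, an F-box protein that targets substrates for degradation and is not known to activate a CDK, had 413 and 371 with exosomes and 461 and 461 with PBS (log2 -0.24, SE 0.070, limma adjusted p = 0.226). In each of the 3 the exosome arrays lay below the PBS arrays on the brighter probe set. The dimmer probe sets of CCNE2 and CCNF each gave a log2 fold change of -0.11, and that of CCNE2 overlapped between groups. CCNE1, CCNF and CDK1 were singled out after their values were seen, because their unadjusted p was under 0.05.

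**Figure D2:**
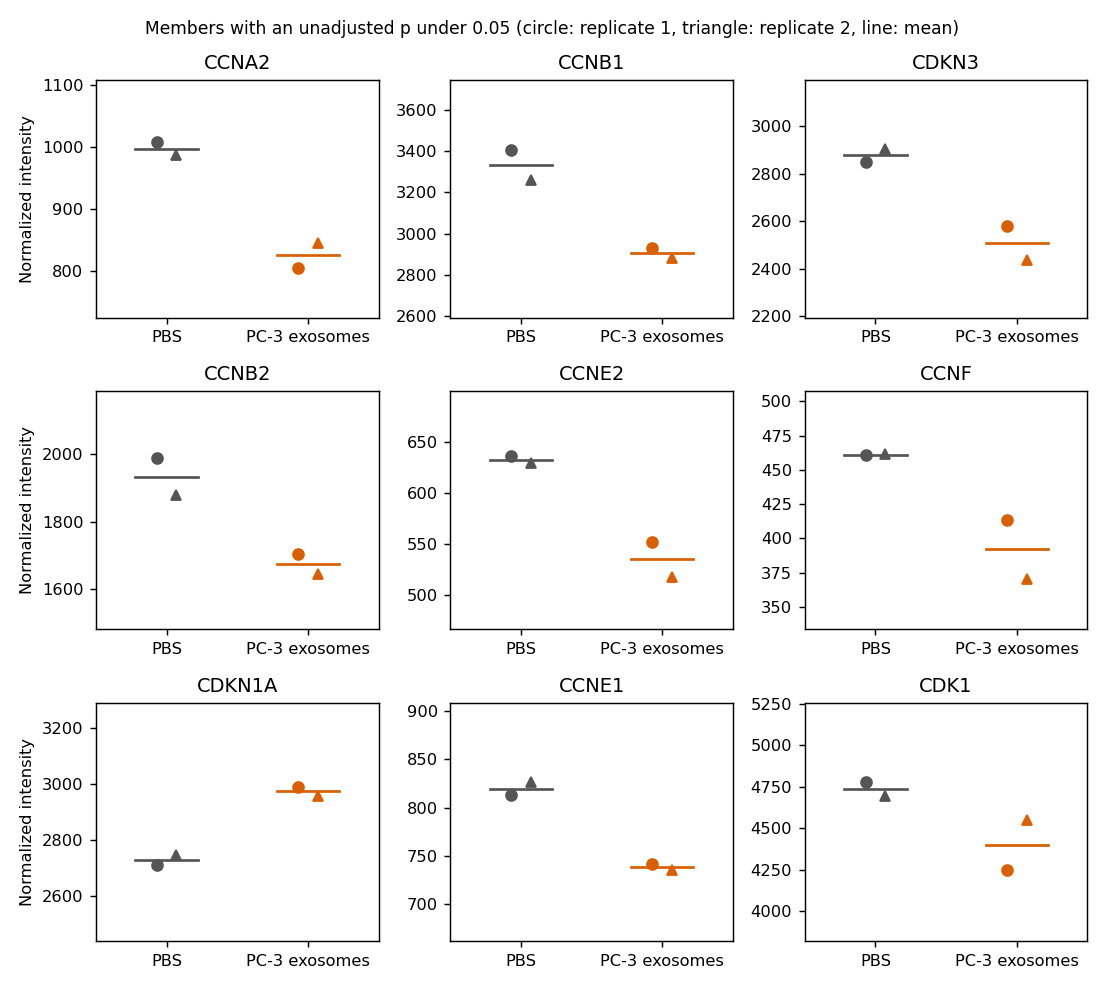
Normalized intensity (y axis, its own range in each panel and not starting at 0) on each array for the 9 members with an unadjusted limma p under 0.05; circles are replicate 1, triangles replicate 2 and lines the group means. In all 9 panels the groups do not overlap, and CDKN1A is the one that is higher with exosomes, at 2992 and 2960 against 2712 and 2750.

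The stretches in front of 4 genes are shown because they are the 4 members with the smallest p that have a single promoter window in the RefSeq table used (GRCh38.p14, 250 bases before to 50 after the gene start, in the direction of the gene). Capitals mark 2 motifs on either strand: CCAAT is the core of NF-Y binding sites, and the letters TTTGAA are the core of the cell cycle homology region. Matches of different motifs were counted separately and may overlap. The CCNA2 window is chr4:121823834-121824133 on the minus strand, and the others are on the plus strand: CCNB1 at chr5:69166900-69167199, CCNB2 at chr15:59104896-59105195 and CDKN3 at chr14:54396757-54397056.
CCNA2: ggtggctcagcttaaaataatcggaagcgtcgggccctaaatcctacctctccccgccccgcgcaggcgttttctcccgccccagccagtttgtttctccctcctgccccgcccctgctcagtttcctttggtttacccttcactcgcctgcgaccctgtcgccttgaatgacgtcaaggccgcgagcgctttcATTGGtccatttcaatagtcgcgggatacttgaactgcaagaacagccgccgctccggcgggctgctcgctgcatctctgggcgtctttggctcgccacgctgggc
CCNB1: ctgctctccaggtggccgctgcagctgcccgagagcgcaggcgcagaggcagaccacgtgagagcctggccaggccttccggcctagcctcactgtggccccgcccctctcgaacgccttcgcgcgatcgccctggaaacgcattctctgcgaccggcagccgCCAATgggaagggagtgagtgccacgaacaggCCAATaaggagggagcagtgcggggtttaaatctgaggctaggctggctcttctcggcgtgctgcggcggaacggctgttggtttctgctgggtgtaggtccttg
CCNB2: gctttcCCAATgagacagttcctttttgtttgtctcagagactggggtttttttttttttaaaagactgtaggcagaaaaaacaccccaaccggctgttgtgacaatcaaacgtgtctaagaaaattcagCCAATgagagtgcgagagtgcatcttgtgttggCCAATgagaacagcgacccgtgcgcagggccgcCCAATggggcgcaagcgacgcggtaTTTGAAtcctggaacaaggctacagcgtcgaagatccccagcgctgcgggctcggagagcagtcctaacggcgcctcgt
CDKN3: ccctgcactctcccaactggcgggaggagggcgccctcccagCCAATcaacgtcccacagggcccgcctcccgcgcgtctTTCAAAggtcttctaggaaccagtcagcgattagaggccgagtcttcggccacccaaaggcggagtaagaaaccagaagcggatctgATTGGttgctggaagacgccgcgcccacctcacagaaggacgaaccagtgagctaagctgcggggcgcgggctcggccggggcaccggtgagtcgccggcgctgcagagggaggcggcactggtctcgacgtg

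All 4 windows hold CCAAT on one strand or the other, with 1 match in CCNA2, 2 in CCNB1 and in CDKN3, and 4 in CCNB2. TTTGAA has 1 match each in CCNB2 and CDKN3, and these letters are not in the CCNA2 and CCNB1 windows. Other spellings of the cell cycle homology region were not searched. In CCNB2 the TTTGAA match begins 29 bases before the gene start, and the nearest CCAAT 54 bases before it. Of the measured members 35 had a window in the table, 50 windows in all, since some genes have several that overlap. The 13 cell cycle windows came from 9 genes, with none for CCND1, CCND2, CCNE2 and CDK2. CCAAT was in 8 of the 13 windows of cell cycle members (61.5%), in 6 of the 19 of transcriptional members (31.6%), in 3 of the 5 of inhibitors (60.0%), in 5 of the 13 of the others (38.5%) and in 34.6% of all 35116 windows. TTTGAA was in 4 of the 13 (30.8%), in 2 of the 19 (10.5%), in 1 of the 5, in 1 of the others' 13 and in 15.2% of all. Both motifs together were in 4 of the 13 cell cycle windows, 2 of the 19, 1 of the 5, 0 of the others' 13 and in 5.90% of all. Either E2F word, TTTGGCGC on its own or TTTCCCGC on its own, was in 0 of the 13 cell cycle windows. Either was in 1 of the 19 and in 2.27% of all. Other E2F words were not searched, so 0 of the 13 does not mean that E2F sites are absent. A match is only a string of letters, and CDK1 alone gave 2 of the 4 windows with TTTGAA. CDK1 and CCND3 each gave more than 1 of the 8 cell cycle windows with CCAAT. All 35116 windows came from 27305 genes, so they include genes beyond the 18132 measured here.

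Among the kinases of the cell cycle 0 of 4 passed the limma test. By unadjusted limma p under 0.05, 1 was lower and 0 higher, against 5.16% and 5.76% of all genes. CDK1, the mitotic kinase, had 4247 and 4551 with exosomes and 4776 and 4692 with PBS (log2 -0.11, SE 0.044, limma adjusted p = 0.414). Its second probe set had 1922 and 2033 against 2261 and 2200, a log2 fold change of -0.17. CDK4, the G1 kinase, had 2938 and 2987 against 3172 and 3038 (log2 -0.07, adjusted p = 0.617), lower on all 4 of its probe sets. CDK2, partner of the E and A cyclins, overlapped between groups, at 428 and 457 against 459 and 449 (log2 -0.04, 95% interval -0.18 to 0.10). CDK6, the other partner of the D cyclins, had 140 and 130 against 110 and 125 (log2 0.20, SE 0.090, limma adjusted p = 0.464). Its 4 probe sets did not share a sign: 2 were below 0 and 2 above. CDK6 was named after its values were seen, as the highest cell cycle member.

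The D cyclins, which respond to growth signals, lay on both sides of 0 on the deposited scale and below 0, at -0.16 to -0.09, against the spike-ins. CCND1 had 1599 and 1751 with exosomes and 1740 and 1531 with PBS, so the groups overlapped (log2 0.04, 95% interval -0.12 to 0.19). Of its 4 probe sets 2 were below 0. CCND3 had 691 and 712 against 678 and 678 (log2 0.05, 95% interval -0.07 to 0.17), and its dimmer probe set had the other sign, at -0.12. CCND2 was dim and overlapped, at 79.6 and 75.8 against 75.9 and 81.9. Grouped this way after the values were seen, the 6 cyclins A2, B1, B2, E1, E2 and F had a median of -0.22 and 6 of 6 below 0, while the 3 D cyclins had a median of 0.04.

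The transcriptional cyclins and CDKs lay close to all genes. Of 13, 0 passed and 0 had an unadjusted limma p under 0.05, with 7 above 0 and 6 below and a median log2 fold change of 0.01. The 4 with the smallest p were CCNC, CDK12, CDK19 and CCNL1. CCNC, cyclin C of the Mediator kinase module, had 1380 and 1540 with exosomes and 1208 and 1395 with PBS (log2 0.17, SE 0.077, limma adjusted p = 0.474). The value was 0.06 without PBS replicate 1, 0.09 without exosome replicate 2 and 0.27 without PBS replicate 2. Its groups overlapped, and its other 2 probe sets gave 0.06 and 0.001. CDK19, a Mediator kinase, had 1678 and 1711 against 1823 and 1767 (log2 -0.08, SE 0.045, limma adjusted p = 0.559), below 0 on all 5 probe sets. CDK8, its close paralogue, overlapped at 964 and 942 against 1067 and 952 (log2 -0.08).

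CDK12, which phosphorylates the tail of RNA polymerase II during elongation, had 487 and 486 with exosomes and 546 and 508 with PBS (log2 -0.11, SE 0.062, limma adjusted p = 0.559). Its 6 probe sets were split, 4 below 0 and 2 above. CDK13, its paralogue, had 224 and 225 against 238 and 237 (log2 -0.08), and CCNK, the cyclin of both, overlapped at 1653 and 1598 against 1652 and 1563 (log2 0.02). CCNL1, a cyclin tied to splicing, had 722 and 736 against 695 and 670 (log2 0.10, SE 0.054, limma adjusted p = 0.580), but -0.04 against the spike-ins. CCNL2, its paralogue, had 615 and 628 against 611 and 584 (log2 0.06). In the elongation factor P-TEFb, CDK9 had 702 and 695 against 734 and 682 (log2 -0.02). Its cyclins CCNT1 and CCNT2 had log2 fold changes of -0.08 and 0.04, and CCNT2 was dim, at 59.0 to 62.2 on all arrays. CDK7 and CCNH, of the CDK-activating kinase, had 0.01 (95% interval -0.10 to 0.12) and 0.05 (95% interval -0.05 to 0.16). By name, 6 of the 7 transcriptional cyclins were above 0 and 5 of the 6 transcriptional CDKs below, with medians of 0.05 and -0.08. This split was not planned, and the counts are fragile. CCNH, CCNK, CDK7, CDK8 and CDK9 each changed sign when 1 array was left out, and CDK9 was 0.01 as the mean of its probe sets. Against the spike-ins 1 of the 7 and 0 of the 6 were above 0.

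Among the inhibitors 0 of 6 passed the limma test. By unadjusted limma p under 0.05, 1 was lower and 1 higher, against 5.16% and 5.76% of all genes. CDKN1A, the inhibitor p21 and a target of p53, had intensities of 2992 and 2960 on the exosome arrays against 2712 and 2750 on the PBS arrays. The exosome arrays lay above the PBS arrays on both of its probe sets, with a log2 fold change of 0.12 on the brighter (SE 0.040, 95% interval 0.03 to 0.21, limma adjusted p = 0.283). Against the poly-A spike-ins it was -0.02, so its direction depends on the scale. CDKN1B, the inhibitor p27, had 1531 and 1621 against 1667 and 1701 (log2 -0.10, SE 0.049, limma adjusted p = 0.523). Its other probe set overlapped, at 344 and 350 against 342 and 354 (log2 -0.005). CDKN1C, p57, overlapped at 109 and 109 against 120 and 97.2. CDKN2D, an INK4 inhibitor, had 328 and 321 against 350 and 335 (log2 -0.08, SE 0.065, limma adjusted p = 0.730).

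CDKN3 is a phosphatase that acts on CDKs, and its transcript is itself cell cycle regulated. It had 2580 and 2438 with exosomes and 2850 and 2904 with PBS, without overlap (log2 -0.20, SE 0.045, 95% interval -0.30 to -0.10, limma adjusted p = 0.109). All 8 of its probe sets were below 0, from -0.30 to -0.15, and on each the groups did not overlap. They share a transcript, and 7 of the 8 names end in _x_at, a mark for probes that may match other sequences, so they are not 8 separate measurements. CDKN2B, the INK4 inhibitor p15, was the 1 member below the mean of the background controls (an intensity of about 49.2) in both groups. Its brightest probe set had 42.1 and 38.5 against 41.3 and 40.7 (log2 -0.03). The other 2 gave 0.33 and 0.46, with unadjusted limma p of 0.013 and 0.010 and adjusted p of 0.396 and 0.373 over all probe sets. Those had 34.8 and 40.6 against 28.3 and 31.1, and 39.4 and 38.8 against 32.9 and 24.03. The background controls themselves ran from 10.4 to 3750, so their mean sets no limit of detection.

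The other 8 members passed the test in 0 cases, also at an unadjusted limma p under 0.05. CCNG1, cyclin G1 and a p53 target, had the widest replicates of these 8 on the log2 scale, at 1111 and 1240 with exosomes and 887 and 1169 with PBS (log2 0.20, SE 0.11, limma adjusted p = 0.559). The groups overlapped, and the log2 fold change was 0.01 without PBS replicate 1, 0.13 without exosome replicate 2 and 0.40 without PBS replicate 2. Its 5 probe sets were all above 0. CDK16, a kinase of the PCTAIRE family, had 1014 and 937 against 986 and 1113 (log2 -0.10, adjusted p = 0.646), and its log2 fold change ran from -0.19 without PBS replicate 1 to -0.02 without PBS replicate 2. A dimmer CDK16 probe set had 676 and 645 against 752 and 811, a log2 fold change of -0.24 with an unadjusted limma p of 0.0054 and an adjusted p of 0.304. CCNG2, cyclin G2, had 573 and 592 against 580 and 656 (log2 -0.08, adjusted p = 0.737), and CDK5, best known from neurons, 442 and 405 against 450 and 428 (log2 -0.05, adjusted p = 0.852). CDK14, CDK17, CDK18 and CCNI lay between -0.02 and 0.03.

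Over probe sets rather than genes, 0 of 122 passed, where 0.258% of 44988 did. By an unadjusted limma p under 0.05, 19 were lower and 3 higher, which is 15.6% lower against 4.14% of all probe sets, with 4.73% of all higher. Of the 19, 9 belonged to cell cycle members and 8 were those of CDKN3. The 3 higher were the 2 of CDKN2B and 1 of CDKN1A. With arrays centred on the spike-ins 16 of the 122 passed, all lower, against 1.66% of all probe sets. Of the 34 members with more than 1 probe set, 17 had probe sets of both signs, 10 had all below 0 and 7 all above 0. In all, 18 of the 122 lay below the background controls' mean.

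**Figure D3:**
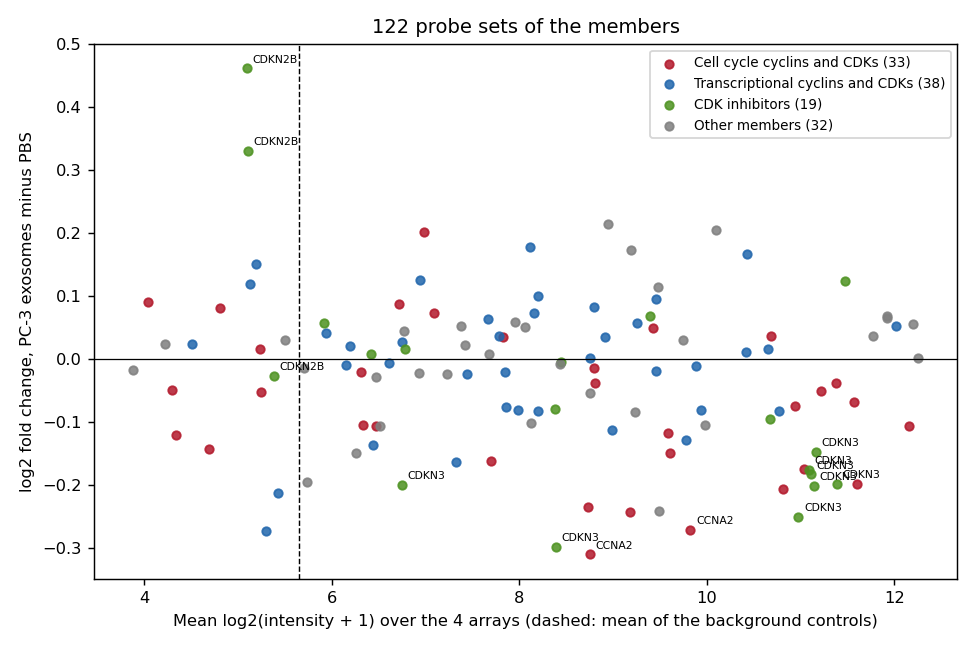
Log2 fold change of the 122 probe sets (y axis, exosomes minus PBS) against their mean log2(intensity + 1) over the 4 arrays (x axis), coloured by role, with CCNA2, CDKN2B and CDKN3 named. The 2 highest points are the dim CDKN2B probe sets left of the dashed mean of the background controls, and most CDKN3 probe sets lie near -0.2 at the bright end.

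Set side by side, the median log2 fold change was -0.11 for the cell cycle cyclins and CDKs, 0.01 for the transcriptional ones, -0.05 for the inhibitors and -0.01 for the others. Both exosome arrays were below both PBS arrays in 8 of 13 cell cycle members (61.5%), in 4 of 13 transcriptional ones (30.8%), in 3 of 6 inhibitors and in 0 of the 8 others, against 21.9% of all genes. Both were above in 2 of the 13 cell cycle members, 3 of the 13 transcriptional ones, 1 of the 6 inhibitors and 1 of the 8 others, against 17.8% of all genes. As a median deviation from each gene's mean over the arrays, the cell cycle role stood at -0.07 and -0.04 on the exosome arrays and at 0.07 and 0.06 on the PBS arrays. The transcriptional role stood at 0.003 and -0.02 against 0.003 and -0.003. The inhibitors stood at -0.01 and -0.03 against 0.05 and 0.01. All genes stood at 0.002 and -0.01 against 0.01 and 0.001. The groups were therefore apart for the cell cycle role, with a pooled SD between replicates of 0.011. They were also apart for the inhibitors, at the closest -0.007 against 0.006, with a pooled SD of 0.026. For the transcriptional role and for all genes they overlapped. The cell cycle median was lower than the transcriptional one by a difference of -0.12, from -0.17 to -0.03 with 1 array left out. The value of -0.03 was the one without exosome replicate 1. Against the inhibitors the difference was -0.05, and it turned to 0.02 without exosome replicate 1. These medians are descriptions and were not tested.

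**Figure D4:**
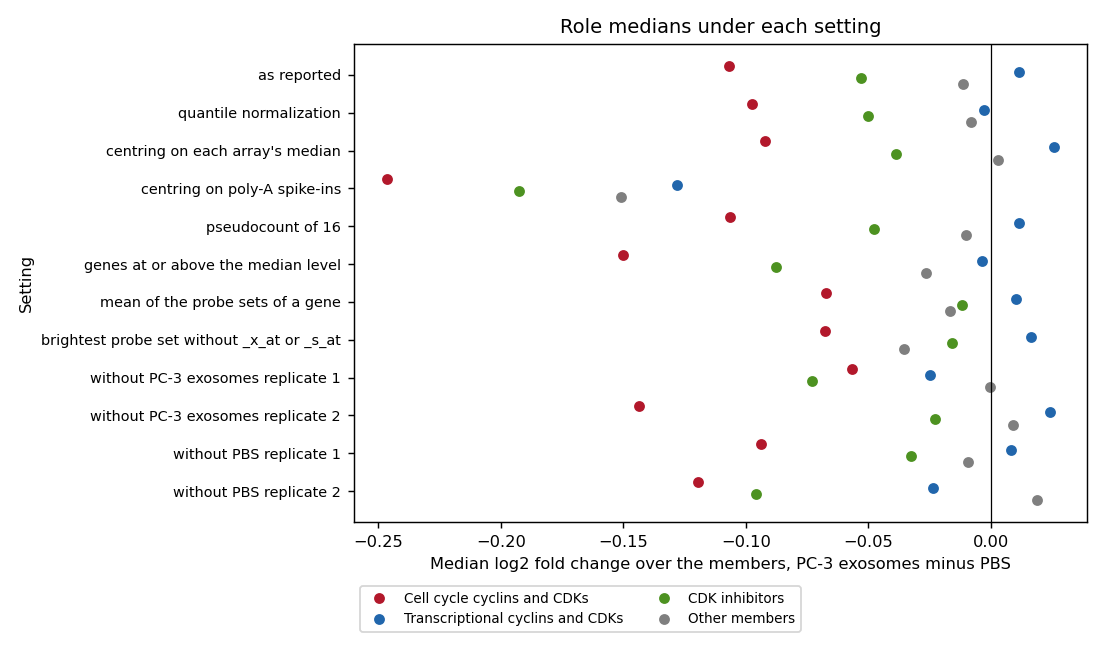
Median log2 fold change over the members of each role (x axis, exosomes minus PBS, colours) under each setting (y axis). The cell cycle median is below 0 in all 12 settings and lowest against the poly-A spike-ins, at -0.25, while the transcriptional median changes sign, from 0.01 to -0.13 there.

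Markers of proliferating cells lay on the same side as the cell cycle members. All 4 (MKI67, TOP2A, PCNA and MCM2) were lower, with a summed intensity of 10784 to 10806 with exosomes and 12020 to 12230 with PBS. Limma called 0 of them. By unadjusted limma p under 0.05, 4 were lower and 0 higher, against 5.16% and 5.76% of all genes. In these bulk samples a smaller share of cycling cells and less of these transcripts per cell cannot be told apart. What part the marker shift, or the higher spike-in signal on the exosome arrays, had in the members' values was not tested.

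The regulators around the members were read from 4 lists. Of 10 genes that phosphorylate, dephosphorylate or bind CDKs, 10 were below 0, where 56.0% of all genes were, and limma called 0. By unadjusted limma p under 0.05, 3 were lower and 0 higher, against 5.16% and 5.76% of all genes. The median of the 10 was -0.09. CKS2, a small subunit that binds CDKs, had 6809 and 6899 against 7270 and 7987 (log2 -0.15, adjusted p = 0.242). CDC25A, the phosphatase that activates CDK2 and CDK1, had 769 and 763 against 900 and 827 (log2 -0.17, adjusted p = 0.314). Among 12 genes of cyclin and inhibitor turnover 1 fell and 0 rose, with a median of -0.02. Limma called 0.888% of all 18132 genes, 34 lower and 127 higher. By unadjusted p under 0.05, 4 of the 12 were lower and 0 higher, where 5.16% of all genes were lower. The called gene was CDC20, which directs the anaphase-promoting complex to the B cyclins. It had 1551 and 1535 against 1946 and 1864 (log2 -0.30, SE 0.046, limma adjusted p = 0.021). With each array left out in turn it kept its direction but not its call, with log2 fold changes of -0.33 to -0.27 and adjusted p of 0.099 to 0.287.

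Of 19 genes of the RB, E2F and MuvB network, which switches cell cycle transcription, limma called 0, with a median of -0.03. By unadjusted limma p under 0.05, 3 were lower and 1 higher, against 5.16% and 5.76% of all genes. E2F7, a repressing E2F that is itself cell cycle regulated, had 391 and 385 against 497 and 470 (log2 -0.32, SE 0.062, limma adjusted p = 0.059). E2F6, another repressor, had 212 and 209 against 175 and 187 (log2 0.22, SE 0.074, limma adjusted p = 0.315). Of the 17 measured partners of the transcriptional CDKs, out of 19 listed, 0 passed and 0 had an unadjusted limma p under 0.05. Their median was 0.001, with 9 above 0 and 8 below. LARP7, which holds P-TEFb in its inactive complex, had 907 and 890 against 976 and 957 (log2 -0.11, adjusted p = 0.499). GTF2H1, of the general factor TFIIH that carries CDK7, had 954 and 892 against 895 and 798 (log2 0.13, adjusted p = 0.553).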

How the data were processed

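Gene expression was measured on 4 Affymetrix arrays. The authors deposited normalized intensities on a linear scale, 1 value per probe set. Per the submitters' processing notes MAS5 and RMA were named, without role, order or version. The genome build is not given in the sources used here. Of 49395 probe sets, 102 were controls, 44988 named 1 gene, 1832 several and 2473 none. The brightest single-gene probe set stood for each gene. Values were taken to log2 with a pseudocount of 1 and fitted across all genes with limma 3.58.1 in R 4.3.3 (lmFit, eBayes with a trend, 2 residual and 7.0 prior degrees of freedom), two-sided. Adjusted p-values are Benjamini-Hochberg over 18132 genes or, where stated, over 44988 probe sets. An exact permutation test of 2 against 2 arrays cannot go below 0.333. The fit was tested on simulated data. Per-array values are given for the 4 members of each role with the smallest p, and other members were added after their values were seen. From each list of regulators the genes past the threshold are given, or else the 2 with the smallest p. The members and lists were chosen with earlier results of these data known. Replicate numbers are not explained in the labels, so no block was used. Alternatives were other scalings, a pseudocount of 16, a level filter, other probe set rules, other variance models, a replicate block, changed lists and leaving out each array. Figures were drawn with matplotlib 3.10.9.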

Additional observations from a re-analysis of the deposited data

How the results depend on the processing

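The count of 0 members past the threshold became 3 after quantile normalization, 7 against the poly-A spike-ins and 5 with the dimmer genes left out, where fewer genes are adjusted over. The 0 member probe sets became 16 against the spike-ins. The 1 list gene (CDC20) became 3, 5 and 3 under those settings, and 0 as the mean of the probe sets, without _x_at or _s_at probe sets, without a trend, with the replicate block and with any array left out. With the replicate number as a block 0 members and 0 member probe sets passed. Same-numbered arrays deviated from their group means with a correlation of -0.04 over genes, so no shared shift was seen. Whether the numbers pair the arrays by design is not in the labels, and this value cannot decide it. The cell cycle median was -0.092 when centred on medians, -0.25 against the spike-ins, -0.15 with dimmer genes left out, -0.067 as the mean of probe sets, -0.068 without _x_at or _s_at, -0.087 without CCNF, and -0.143 to -0.057 with 1 array left out. The transcriptional median of 0.01 was -0.0028, 0.026, -0.13 and -0.0037 under quantile normalization, median centring, spike-ins and the level filter, and -0.025 to 0.024 with 1 array left out (below 0 without exosome replicate 1 or without PBS replicate 2). The inhibitor median was -0.19 against the spike-ins, -0.088 with the level filter, -0.012 as the mean of probe sets, -0.016 without _x_at or _s_at, -0.027 without CDKN3, and -0.096 to -0.023 with 1 array left out. The median of the others was -0.15 against the spike-ins. The cell cycle minus transcriptional difference was -0.095, -0.15, -0.078 and -0.084 under quantile normalization, the level filter, mean probe sets and no _x_at or _s_at, and -0.167 to -0.032 with 1 array left out. The cell cycle minus inhibitor difference was -0.12 to 0.016 with 1 array left out. Of the values of 19 members (the 4 of each role with the smallest p, and CCNE1, CCNF and CDK1) under alternatives, 245 kept direction and call, 15 passed the threshold only there and 6 changed sign: CCNL1 (-0.044) and CDKN1A (-0.016) against the spike-ins, CCNG2 as the mean of probe sets (0.0038) and without PBS replicate 2 (0.0053, where leaving out 1 array gave -0.17 to 0.0053), CDK5 without exosome replicate 2 (0.0097) and CCNE1 without _x_at or _s_at (0.015). Among the other members 11 changed sign against the spike-ins, 8 as the mean of probe sets and 1 under quantile normalization. Leaving out 1 array changed the sign of CCND1, CCND2, CDK2, CCNH, CCNK, CDK7, CDK8, CDK9, CDKN1C, CDKN2B, CCNI, CDK17 and CDK18. The remaining settings were not counted for these other members. Apart from the effect of construction named above, the cause of these shifts was not tested. The spike-in shift of 0.14 was itself 0.08 without PBS replicate 2 and 0.20 without PBS replicate 1.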
